A study of Mus musculus with 8 samples.

Results

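Fth1 encodes the heavy subunit of ferritin, the protein shell in which cells store iron. It was taken as 1 of the 3160 genes in the deposited table, by its symbol, chosen by its low ratio of ribosome-bound to total RNA in both stages. Those ratios are therefore given as descriptions, with no test. The libraries came from E14Tg2A, a single mouse embryonic stem (ES) cell line, in 4 groups of 2 libraries each. ES cells, at day 0, grew on gelatin in medium with serum and leukemia inhibitory factor (LIF). Epiblast-like aggregates (ELA) were ES cells kept for 2 days as floating clumps in a chemically defined minimal medium with N2/B27 supplements. All cells received cycloheximide, which stalls ribosomes, before lysis. In each stage, input was a share of the clarified lysate and Rpl10a-IP was the RNA pulled down with an antibody to endogenous Rpl10a, a protein of the large ribosomal subunit, so no transgene or tag was involved. Control pull-downs with an antibody to GFP were not analysed here.

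Ferritin takes up ferrous iron, and its heavy subunit carries the ferroxidase activity that oxidises it for storage. The ferritin mRNAs are a textbook case of control at translation. A stem-loop near the 5′ end, the iron responsive element (IRE), is bound by the iron regulatory proteins when iron is scarce, which keeps the small ribosomal subunit from loading. When iron is ample, the proteins let go and ferritin is made. The transferrin receptor mRNA, from Tfrc, carries the same kind of stem-loop in its 3′ UTR, where binding protects the mRNA from decay, so that iron uptake and iron storage are set in opposite directions.

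The gene lies on chromosome 19, from 9980600 to 9985111 (GRCm38.p6, RefSeq, protein coding). Its transcript in GENCODE vM1 had 866 bases, of which 167 were 5′ UTR, 549 coding sequence and 150 3′ UTR. It was among the shortest in the table: 56 of the 2979 genes with a transcript length (1.88%) were shorter, and the median was 3698 bases. The stem-loop was searched for by its letters: a C, 5 bases, the loop letters CAGTGN, and 5 bases able to pair with the 5 before the loop, with G-T pairs allowed. The search covered the strand of the transcript only. The matches in Fth1 and in Tfrc are printed because they are textbook IREs at opposite ends of an mRNA. They are from the GENCODE vM1 transcripts, 5′ to 3′ with T for U, and capitals mark the loop letters CAGTGN.
Fth1, 5′ UTR, bases 30 to 58: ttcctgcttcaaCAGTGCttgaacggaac
Tfrc, 3′ UTR, bases 3315 to 3343: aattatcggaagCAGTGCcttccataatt
Tfrc, 3′ UTR, bases 3694 to 3722: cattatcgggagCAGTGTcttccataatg
Tfrc, 3′ UTR, bases 3759 to 3787: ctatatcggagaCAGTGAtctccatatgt
Tfrc, 3′ UTR, bases 3806 to 3834: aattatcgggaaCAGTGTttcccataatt
The Fth1 match lay wholly in the 5′ UTR. The Tfrc matches all lay in the 3′ UTR. A match in the 5′ UTR was found in 4 of 2918 genes (0.137%), and a match in the 3′ UTR in 24 of 2957 genes (0.812%). A match of letters describes the transcript and does not show that a protein binds there. Ftl1, the light subunit of ferritin, was not analysed here.

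Fth1 has processed copies elsewhere in the genome, which could share its reads. A search with the 866-base mRNA found 18 other loci in the NCBIM37 assembly, an earlier build than that of the files. Of these, 3 covered at least 80% of the mRNA, at 80.4% to 88.0% identity. Of the 817 windows of 50 bases along the mRNA, 8.69% matched another locus exactly and 34.4% matched another locus within 2 mismatches. The study's methods allow at most 2 hits in mapping. At that step 3.79% of windows, those with at least 2 other loci within 2 mismatches, could have lost reads. The methods do not say how reads with 2 hits were then counted, so windows with any other locus could have lost reads as well. RefSeq names 2 Fth1 pseudogenes. The part of the copies in the Fth1 values was not tested.

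Library depth differed strongly. The reads assigned to the 3160 genes ranged from 159587 and 410192 in the 2 ELA input libraries to 23483388 in ELA Rpl10a-IP replicate 1, a 147-fold span. The study's methods describe ELA input replicate 1 as of low complexity and say that it was excluded. Here it was left out of the fits that do not need it and kept in the ELA ratios and the change in total RNA, which are also given without it. Among the markers used to check the labels, the 4 measured of 7 for naive pluripotency (Nanog, Klf4, Fgf4 and Tfcp2l1) all fell in total RNA from ES to ELA, with a median log2 change of −2.89. Pou5f1, shared by both pluripotent states, fell by 1.18 on the log2 scale, Dnmt3b, a marker of primed epiblast, rose by 2.62, and the neural progenitor gene Nes rose by 2.51. The fibroblast marker Vim fell by 0.90, and the markers of primitive endoderm and mesoderm were not among the genes analysed here.

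Fth1 was abundant in total RNA. Its reads numbered 5468 and 3942 in the ES input libraries, 4583 and 5075 in ES Rpl10a-IP, 182 and 591 in ELA input, and 6407 and 4671 in ELA Rpl10a-IP. The shares of library reads were 0.102% and 0.101% in ES input and 0.0254% and 0.0264% in ES Rpl10a-IP. They were 0.114% (95% Wilson interval 0.0986% to 0.132%) and 0.144% (0.133% to 0.156%) in ELA input and 0.0273% and 0.0291% in ELA Rpl10a-IP. In both stages every input library held a larger share than every Rpl10a-IP library. The intervals cover counting error only, since reads without molecular identifiers are not independent molecules.

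The normalised counts, which are reads scaled to a common library size by the trimmed mean of M-values (TMM), were 4654 and 4540 in ES input, 1156 and 1222 in ES Rpl10a-IP, 4948 and 6265 in ELA input, and 1272 and 1372 in ELA Rpl10a-IP. The group means were 5606 ± 931 (SD, n = 2) in ELA input, 4597 ± 80.9 in ES input, 1322 ± 70.6 in ELA Rpl10a-IP and 1189 ± 46.9 in ES Rpl10a-IP. The input and Rpl10a-IP groups were far apart. Within each fraction both ELA libraries lay above both ES libraries, though the lower ELA value came close to the higher ES value. Per base of transcript, Fth1 ranked 41st from the highest of 2979 genes in ES input and 23rd in ELA input. In the Rpl10a-IP groups it ranked 219th in ES and 123rd in ELA.

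**Figure D1:**
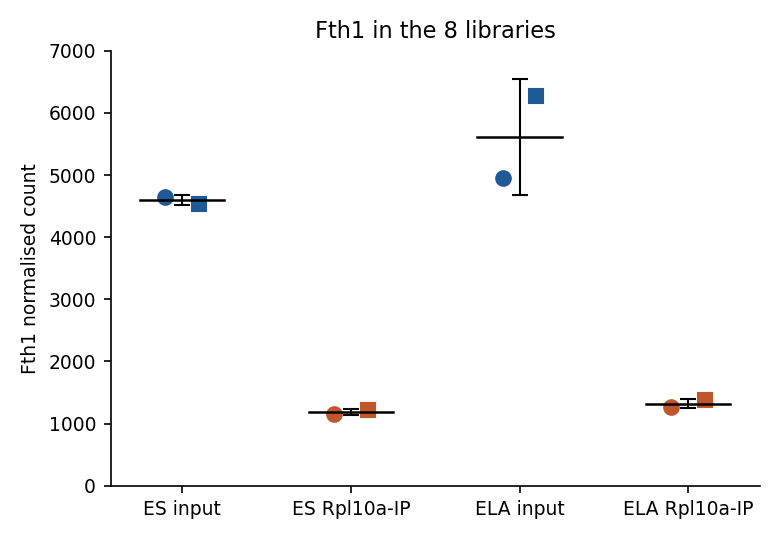
Fth1 normalised count (y axis, reads scaled by TMM) in the 8 libraries, with circles for replicate 1 and squares for replicate 2. Horizontal lines are group means and bars are SD (n = 2). The inputs lie between 4540 and 6265 and the Rpl10a-IP libraries between 1156 and 1372.

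The ratio of Rpl10a-IP to input of the same replicate number is the measure that chose Fth1, and a value under 1 means less of the RNA in the ribosome fraction than in total RNA, relative to other genes. In ES it was 0.248 and 0.269 (mean 0.259 ± 0.0147, SD, n = 2), so that Fth1 stood at 3.87-fold less in the ribosome fraction, with a mean log2 ratio of −1.95. In ELA it was 0.257 and 0.219 (mean 0.238 ± 0.0269), which is 4.21-fold less, with a mean log2 ratio of −2.07. The values of the stages overlapped. The mean log2 ratio in ELA was 0.12 below that in ES, a fold of 0.917, with a difference of 0.050 between the libraries numbered 1 and of −0.30 between those numbered 2. On this scale the ratio of Fth1 was close in ES cells on gelatin and in aggregates kept without serum or LIF. With a correction for transcript length and GC content, in a fit with the replicate number as a block, the difference turned, and the log2 ratio in ELA was 0.56 above that in ES. Without ELA input replicate 1 the ELA log2 ratio was −2.23, and without ELA input replicate 2 it was −1.90. In bulk libraries such as these, fewer cells with an RNA and less of it per cell cannot be told apart.

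The same ratio placed Fth1 differently among the other genes of each stage. In ES, genes were spread narrowly, with an SD of 0.296 on the log2 scale and 95% of genes between −0.65 and 0.51. Fth1 lay 6.51 SDs below the mean of all genes and was 2nd lowest of 3160. The lowest was Slc7a14, a member of the cationic amino acid transporter family, at −2.68 (ratios 0.151 and 0.158). Next above Fth1 was 2610005L07Rik, a transcribed pseudogene in RefSeq, at −1.39 (0.382 and 0.381). It was followed by Anp32b, an acidic nuclear phosphoprotein, at −1.35, then Cflar, an inhibitor of caspase-8 activation, at −1.01, and Taf1d, a subunit of the RNA polymerase I selectivity factor, at −1.01. The gap between Fth1 and the next gene was thus wider than the range from that gene to the 6th lowest.

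In ELA the genes were spread more widely, with an SD of 0.812 and 95% of genes between −1.70 and 1.46. Fth1 lay 2.51 SDs below the mean and was 32nd lowest, with 0.981% of genes lower; it was 19th lowest without ELA input replicate 1 and 59th without ELA input replicate 2. The lowest were Rps14, a protein of the small ribosomal subunit, at −3.82, Hist1h1a, a linker histone, at −3.21, Trip4, a transcription coactivator, at −2.94, Rps19, another protein of the small subunit, at −2.90, and Ubqln2, a ubiquilin, at −2.72. Beside Fth1 stood Krcc1 at −2.10 and Ndufa7, a subunit of respiratory complex I, at −2.06. In ELA input, Krcc1 rested on 27 and 64 reads and Ndufa7 on 12 and 30, against 182 and 591 for Fth1, so its neighbours in that order were measured on fewer reads. Of the lowest 32 genes in each stage, 5 were shared: Fth1, Hist1h2af, Rpl38, Rps16 and Rps19, the members of this small overlap being named after their values were seen. No gene was among the lowest 10 of both stages.

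**Figure D2:**
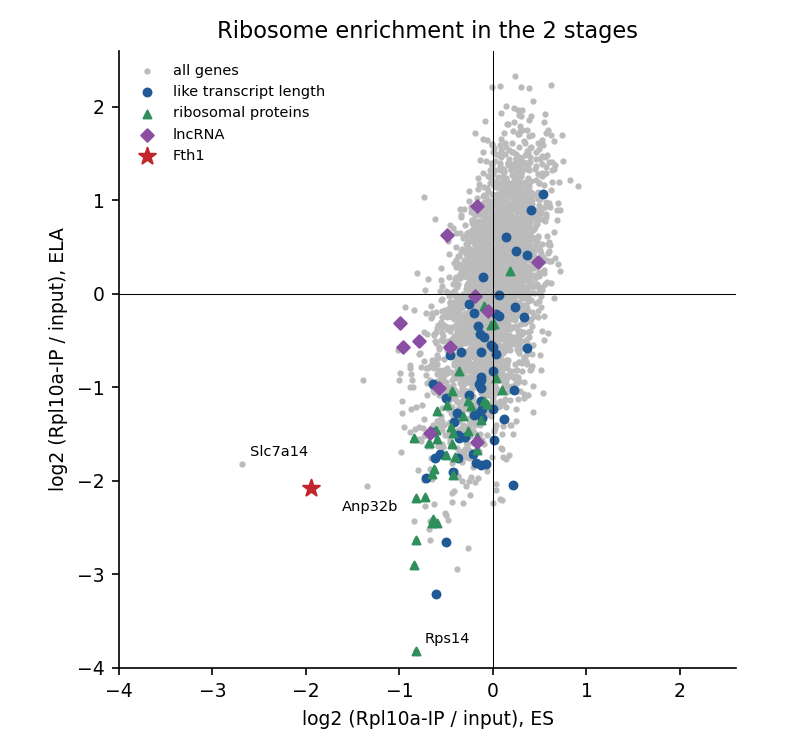
Mean log2 ratio of Rpl10a-IP to input (n = 2) in ES (x axis) and in ELA (y axis), 1 point per gene. The star is Fth1, at −1.95 and −2.07, triangles are ribosomal protein genes, dark circles are other genes of like transcript length and diamonds are lncRNA genes. Fth1 lies left of all of these sets, while in ELA some ribosomal protein genes and 2 other genes of like length, Hist1h1a and Pdcd5, lie below it.

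Short transcripts were compared with Fth1 because the ratio moved with transcript length. Over the 2979 genes with a length, Pearson's r between log2 length and the log2 ratio was 0.205 in ES and 0.485 in ELA (Spearman's rho 0.175 and 0.437). These describe genes of the same libraries, which are not independent. The window of 25% on either side of the Fth1 length, 649.5 to 1082.5 bases, held 74 other genes. In ES their median log2 ratio was −0.15 and the lowest were Rps16 and Rps14, at −0.82 each, and Rps27a at −0.73. None of the 74 was as low as Fth1, a result already set by its rank of 2nd lowest of all genes in ES. Fth1 lay 3.47-fold below their median. In ELA their median was −1.16, 44 of them were more than 2-fold lower in Rpl10a-IP than in input, and 6 were lower than Fth1, which lay 1.89-fold below the median. Rps14, Hist1h1a and Pdcd5, a gene linked to programmed cell death, at −2.66, were the lowest. With ribosomal protein genes left out, 58 genes remained, of which 0 were lower than Fth1 in ES and 2, Hist1h1a and Pdcd5, were lower in ELA.

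**Figure D3:**
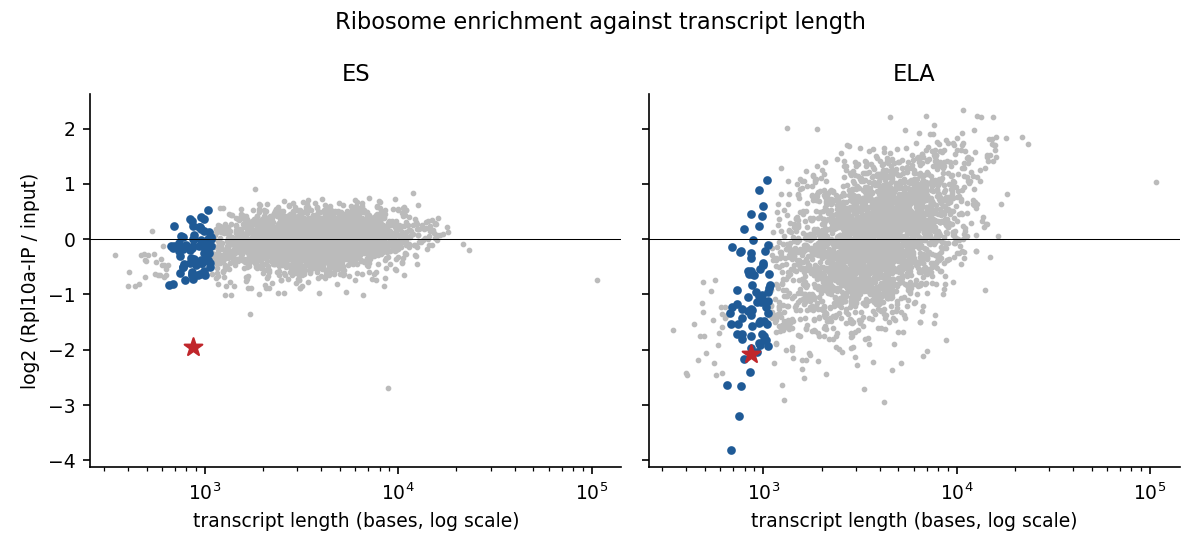
Mean log2 ratio of Rpl10a-IP to input (y axis, n = 2) against transcript length in bases (x axis, log scale), for ES (left) and ELA (right), 1 point per gene. The star is Fth1 and dark circles are the 74 genes of like length. In ES the star lies below all of them, whose lowest is at −0.82, and in ELA it lies within their range, which reaches −3.82.

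Ribosomal protein mRNAs are also known for control at translation, through a tract of pyrimidines at their 5′ end, and are short as well. The 39 measured ribosomal protein genes had a median log2 ratio of −0.44 in ES, from −0.84 for Rps19 to 0.18 for Rpl10a, the protein that was pulled down. Fth1 was lower than all 39. In ELA their median was −1.49, from −3.82 for Rps14 to 0.24 for Rpl10a, and 8 were lower than Fth1. RNAs that are not translated give another reference. The 12 lncRNA genes had a median of −0.47 in ES, from −0.99 for 1700020I14Rik to 0.48 for Gm10336, and of −0.41 in ELA, from −1.59 for Gm2373 to 0.94 for Mir17hg. Fth1 was lower than every one of them in both stages. In ES, its place below these genes and the ribosomal protein genes was already set by its rank of 2nd lowest. The ELA ratio was also part of its choice.

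The length and GC content of each gene were also removed from the log2 values with a smooth curve, in a fit with the replicate number as a block. The Fth1 log2 ratio in ES was then −1.69 and again 2nd lowest, of 2979 genes, with Slc7a14 lowest. In ELA it was −1.13 and ranked 167th lowest.

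The change between the stages was not the measure that chose Fth1, but it rests on the same libraries as the ratios that did. The adjusted p-values of Fth1 are thus not free of that choice. In total RNA, Fth1 was 1.21-fold higher in ELA than in ES (log2 change 0.28, SE 0.11, limma, Benjamini-Hochberg adjusted p = 0.0269). The 2 ELA input libraries, at 4948 and 6265, lay above the 2 ES input libraries, but of all genes 70.2% passed this test, and 66.0% of genes had a lower log2 change. The call did not hold without ELA input replicate 2 (log2 change 0.11, adjusted p = 0.386), without ES input replicate 1 (0.29, 0.0906) or without ES input replicate 2 (0.26, 0.132). Without ELA input replicate 1, the library of low complexity, the log2 change was 0.46 (adjusted p = 9.85e-05). With the deposited scaling it was 0.18 (adjusted p = 0.179). The call of this rise thus needed 3 of the 4 input libraries, and its size depended on the scale: once corrected for length and GC content, with the replicate block, it was 0.91 (adjusted p = 4.89e-20).

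In ribosome-bound RNA, where the libraries were deep, Fth1 was 1.12-fold higher in ELA (log2 change 0.16, SE 0.089, adjusted p = 0.0770) and did not pass the test, which 83.4% of all genes passed. The 4 values, 1156 and 1222 in ES and 1272 and 1372 in ELA, did not overlap. With the length and GC correction and the replicate block, the log2 change in ribosome-bound RNA was 1.49 (adjusted p = 2.92e-23). On that scale Fth1 is read against genes of its own length and GC content and not against all genes. The adjusted p-values are too small by an unknown amount, because the authors had filtered the table on the spread between replicates, and the study's methods say that experiments were done in duplicate but not whether the 2 libraries of a group came from separate cultures, so the p-values measure the spread between these libraries.

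Of 69 genes listed for iron handling besides Fth1, 8 are reported. They cover iron delivery and release for ferritin (Pcbp1, Ncoa4), uptake (Tfrc, Slc39a14), iron-sulfur clusters (Hspa9, Nubp1, Mms19) and the oxygen-dependent factor Hif1a. In ES, 4 of the 8 were higher in Rpl10a-IP than in input, 1 was lower and 3 did not pass the test, with a median log2 difference of 0.16 against −0.0084 over all genes. Of all genes, 39.2% passed, 20.5% higher and 18.7% lower. With all 8 libraries in the fit, 4 of the 8 iron genes and 762 of the 3160 genes passed. In ELA, 6 were higher and 2 lower, with a median of 0.39 against −0.012, where 74.0% of all genes passed, 36.8% higher and 37.2% lower. With the replicate block and a correction for length and GC content, the calls of Slc39a14 (−0.021) and Mms19 (0.21, adjusted p = 0.172) were lost. No listed gene of the 8 had a ratio near that of Fth1 in ES, which follows from the place of Fth1 among all genes there.

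**Figure D4:**
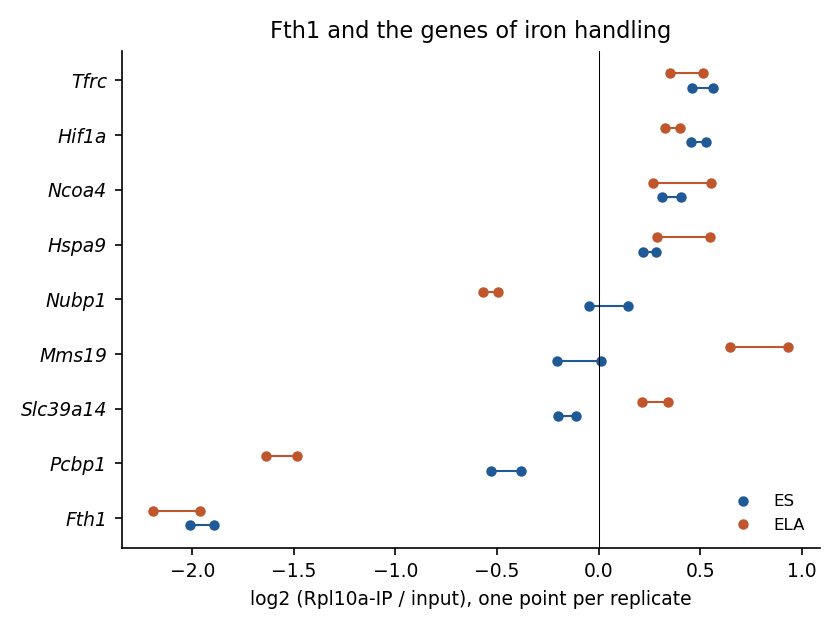
Log2 ratio of Rpl10a-IP to input for Fth1 and the 8 reported genes of iron handling, 1 point per replicate, with a line joining the 2 replicates of ES (blue) and of ELA (orange). Fth1 lies near −2 in both stages, and Pcbp1 is the gene nearest to it, at −1.56 in ELA.

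Tfrc, which brings in iron bound to transferrin, was higher in the ribosome fraction, where Fth1 was lower. Among all 3160 genes, Tfrc ranked 3081st from the lowest ratio in ES and 2254th in ELA. Its transcript had 4890 bases, and ratios tended to rise with transcript length. Its ratios were 1.48 and 1.38 in ES and 1.28 and 1.43 in ELA, so that it was higher in the ribosome fraction for both replicate numbers of each stage (log2 difference 0.52 in ES, adjusted p = 3.65e-07, and 0.43 in ELA, adjusted p = 4.80e-04, limma). From ES to ELA its total RNA fell to 0.594-fold (log2 change −0.75, SE 0.11, adjusted p = 1.35e-07) and its ribosome-bound RNA to 0.567-fold (−0.82, SE 0.087, adjusted p = 2.49e-16), against the small upward values of Fth1. The share on ribosomes did not move detectably, with a difference between the stages of −0.079 (SE 0.15, adjusted p = 0.674).

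A match in the 5′ UTR was also found in Eif2s1, an initiation factor subunit, with mean ratios of 1.13 in ES and 0.772 in ELA, and in Vti1b, a SNARE protein, with 0.764 and 0.969. Both were named after their values were seen, and both lay far above the Fth1 ratios of 0.259 and 0.238.

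Pcbp1, a chaperone that hands iron to ferritin, had ratios of 0.693 and 0.767 in ES and of 0.322 and 0.357 in ELA. It was lower in Rpl10a-IP in both stages (log2 difference −0.44, adjusted p = 2.93e-05, and −1.56, adjusted p = 7.56e-15). Its total RNA rose by 0.43 on the log2 scale while its ribosome-bound RNA fell by 0.66 (−0.072 with the replicate block and the length and GC correction, where the call was lost, adjusted p = 0.363), and the change in the ratio was −1.10 (SE 0.15, adjusted p = 2.38e-07). Ncoa4, the receptor that takes ferritin to lysosomes, was higher in Rpl10a-IP, at 0.37 in ES and 0.41 in ELA. Its total RNA fell by 0.79 and its ribosome-bound RNA by 0.72 (adjusted p = 2.53e-07 and 3.66e-12).

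Over the 8 genes, total RNA rose for 2 and fell for 3 (median log2 change −0.15, with −0.018 over all genes, of which 34.5% rose and 35.8% fell). Ribosome-bound RNA rose for 3 and fell for 5 (median −0.55, with −0.012 over all genes, of which 41.6% rose and 41.9% fell). Hif1a, a transcription factor of the hypoxia response, rose in total RNA by 0.82, and Hspa9, a mitochondrial chaperone, fell by 0.62. The ratio changed between the stages for 4 of the 8, which were Mms19 and Slc39a14 upwards and Pcbp1 and Nubp1 downwards, where 56.2% of all genes passed, 28.4% upwards and 27.7% downwards. The calls of Slc39a14 (0.44) and Nubp1 (−0.56) were lost without ES Rpl10a-IP replicate 2. Of 16 genes listed for the antioxidant response, 11 were measured. In ES 3 were higher and 2 lower in Rpl10a-IP (39.2% of all genes passed), and in ELA 3 were higher and 4 lower (74.0%). In total RNA 2 rose and 7 fell from ES to ELA, with a median log2 change of −0.43 (70.2%).

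The genes whose levels over the 8 libraries ran most like those of Fth1, by the distance between log2 values centred on each gene, were Anp32b (distance 1.05, r = 0.934), Slc7a14 (1.10, r = 0.945), 2900011O08Rik (1.11, r = 0.965), Rbms2, an RNA-binding protein (1.22, r = 0.983), and Dynll2, a dynein light chain (1.29, r = 0.903). The r are over libraries that fall into 2 fractions and serve as a description. All 5 were lower in Rpl10a-IP in both stages, from −2.68 to −0.74 in ES and from −2.05 to −1.43 in ELA. That direction follows from their choice by closeness to Fth1 over these libraries. None was as short as Fth1, since their transcripts ran from 1716 to 8845 bases.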

How the data were processed

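Total RNA (input) and Rpl10a-bound RNA were sequenced from ES and ELA cells, 2 libraries per group. The authors mapped reads to mm10 with TopHat2, allowing 2 hits and 2 mismatches, counted them per gene with htseq-count (HTSeq) and divided them by DESeq2 size factors, so the deposited values are a scaled signal. Strand in counting was not given in the sources used here. Every deposited value was a whole number of reads times 1 step per library (100% within 0.001). The reads read back were normalised by TMM and tested with limma 3.58.1 (R 4.3.3) on log2(normalised count + 1), with Benjamini-Hochberg adjustment over all 3160 genes and a threshold of 0.05. Ribosome enrichment in ES and change in ribosome-bound RNA used 7 libraries, without ELA input replicate 1, and the other comparisons used 8. The fold changes are on that log2 scale, which understates changes of low genes. The table held genes whose larger mean input was at least 50.0 and whose ratio varied by at most 20% between replicates. Transcript lengths came from GENCODE vM1 (2979 genes matched, 181 did not), biotypes and the Fth1 position from RefSeq GRCm38.p6, and copies from BLAST+ 2.17.0. The remaining 26 columns of the table, in which the authors deposited group means, SDs, ratios and fold changes, also on a log2 scale, were not used. The fits were tested on simulated data, in which more calls than the threshold allows were false for change in total RNA and enrichment in ELA, both of which rest on ELA input, so calls near the threshold there are less certain. Some genes of iron handling are not reported here. By rule, the genes named were Fth1, the iron genes that are reported, the 5 lowest genes per stage with the neighbours of Fth1, the 5 most alike genes, and the extremes of the comparison sets. Markers, Eif2s1, Vti1b, Hist1h2af and Rpl38 fall outside this rule. The gene, lists and tests were chosen with earlier results of these data known. Alternatives were another pseudocount, the deposited scaling, total reads, a read minimum of 10, all 8 libraries, each library left out, and the replicate number as a block, alone and with a length and GC correction.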

Additional observations from a re-analysis of the deposited data

Results flagged for a closer look

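The ratio of Rpl10a-IP to input differed between ES and ELA, by the limma test of that difference, for 4 of the 8 iron genes reported, where 56.2% of all genes passed. Mms19, a factor that passes iron-sulfur clusters to DNA repair and replication enzymes, had a higher ratio in ELA by 0.88 on the log2 scale (mean ratio 0.937 in ES and 1.74 in ELA, adjusted p = 2.60e-04). Slc39a14, a metal importer, was higher in ELA by 0.43 (0.899 and 1.21, adjusted p = 0.0247). Pcbp1 had a log2 difference of −1.10 (0.730 and 0.340, adjusted p = 2.38e-07). Nubp1, a scaffold for cytosolic iron-sulfur clusters, had a log2 difference of −0.58 (1.04 and 0.691, adjusted p = 0.0138). In ELA input, Nubp1 rested on 8 and 19 reads and Mms19 on 9 and 22, and the part of this depth in the results was not tested. The call of Slc39a14 was lost without ES input replicate 2, without either ES Rpl10a-IP library or without ELA Rpl10a-IP replicate 1, and that of Nubp1 without ES input replicate 1 or ES Rpl10a-IP replicate 2. With the replicate block plus a correction for length and GC content, the calls of Mms19 (0.38, adjusted p = 0.0998) and Slc39a14 (0.14, adjusted p = 0.449) were lost, and that of Slc39a14 also with total reads as the scaling (0.34, adjusted p = 0.0815). With at least 10 reads required in every library, neither Nubp1 nor Mms19 could be fitted.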

How the results depend on the processing

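The Fth1 ratio in ES was 2nd lowest under every alternative that gave it. The rise of Fth1 in total RNA was not called with the deposited size factors (0.18) or the 10-read minimum (0.23), and it ranged from 0.11 to 0.46 with 1 library left out. With the replicate block and the length and GC correction, the Fth1 change was 0.91 in total and 1.49 in ribosome-bound RNA, the ES and ELA ratios were −1.69 and −1.13 and their difference 0.56, the cause of which was not tested. With a library left out, the ELA ratio ranged from −2.23 to −1.90 and its rank from 19 to 59, the difference between stages from −0.29 to 0.046, and the iron genes called in change of ratio from 2 to 4. The iron genes called in change of ratio fell from 4 to 2 with the 10-read minimum, which removes 2 of the called genes. Over all genes, 1594 of 2779 were called with that minimum. Over all genes, 762 were called in ES enrichment with all 8 libraries, and 734 to 1332 with a library left out.

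Of 538 single-gene alternatives for iron genes, 506 kept direction and side of the threshold, 20 lost the call, 3 gained it and 9 turned sign. With both the block and the correction for length and GC, those that turned were Slc39a14 in ELA enrichment (−0.021), Nubp1 in total RNA (0.070) and Tfrc in change in ratio (0.069), and Mms19 lost its call in ribosome-bound RNA (0.14, adjusted p = 0.292). The change in ratio of Ncoa4 turned with total reads (−0.040). With 1 library left out, the sign turned within the range of values for the change in ratio of Ncoa4 (−0.070 to 0.18), Tfrc (−0.18 to 0.023) and Hif1a (−0.26 to 0.0062) and for the ES enrichment of Nubp1 (−0.050 to 0.17).

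Input was taken from the lysate that was then immunoprecipitated, but the labels do not say that a replicate number marks 1 lysate. The numbers were taken from the titles, and another label numbers both input libraries of each stage as replicate 1. Deviations of same-numbered libraries correlated over genes at 0.17 between ES input and ES Rpl10a-IP and 0.50 between ELA input and ELA Rpl10a-IP, and at −0.025 to 0.17 between the stages. The tests carry no block. With the replicate number as a block alone, no call of Fth1 or of the 8 iron genes changed, and 1297 genes were called in ES enrichment and 2414 in ELA enrichment, against 1239 and 2338. Deposited size factors give no enrichment within a stage, since they were set within each fraction. The edgeR alternative was not run. The 182 and 591 reads of Fth1 in ELA input limit the precision of its ELA ratio.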
